A study of Mus musculus with 30 samples.

Results

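The comparison described here is that of mouse embryonic stem cells (mESC) carrying the RGM reporter and lacking Zfp57 with reporter cells of wild-type genotype, read at the IG-CGI on an amplicon reference of its own, the reporter IG-CGI. It rests on 2 of the 30 libraries of the series, 1 per genotype, chosen by their labels. The other library on the same reference, from reporter cells without Zfp57 and Gzf1, is set beside them in places. Libraries of V6.5 mESC on another reference, wild type and Dnmt1 knockout, are set beside them at the end. All 3 libraries on the reporter reference come from the RGM line. RGM is the usual short name of a reporter of genomic methylation, which the labels do not spell out, and they do not say where the reporter sits, whether the amplicon reads both alleles, how Zfp57 was deleted, or whether the knockout is 1 clone. The amplicon reads carry no expression, so the absence of Zfp57 and the cell type rest on the labels. The read names of the wild-type library carry another tag than those of both knockout libraries, and the labels do not say what it marks. A difference in sequencing, if the tag marks one, cannot be told apart from genotype.

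The IG-CGI is a CpG-rich part of the intergenic control region (IG-DMR) of the imprinted Dlk1-Dio3 domain on mouse chromosome 12. In mm10 the region lies between Dlk1 (109452485 to 109463336), a paternally expressed gene for a transmembrane protein of the Notch ligand family, and Meg3 (109540996 to 109571729), a maternally expressed long non-coding RNA gene. In normal somatic cells the IG-DMR carries methylation on its paternal copy and lacks it on the maternal one. Zfp57 (gene on chromosome 17, 37001163 to 37010729) is a KRAB zinc finger protein that binds a short methylated motif in imprinting control regions and recruits Trim28 with its partners, which keeps methylation on the imprinted copy through cell division. The question of the comparison is how much methylation stays at this region of stem cells without Zfp57, and in which form.

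DNA was converted with bisulfite, amplified by nested PCR and sequenced as amplicons on nanopores. Each read gives a call, methylated or unmethylated, at up to 28 CpGs, which are named here by their base on the amplicon reference, from CpG 39 to CpG 259. The wild-type library held 182 reads and 3335 calls at these CpGs, and the knockout library 163 reads and 3706 calls. Calls per CpG ran from 49 to 176 in the wild-type and from 80 to 160 in the knockout library, in both with the fewest at CpG 259. The level of a CpG gives its methylated calls in percent of all its calls, and a library is summarised by its mean CpG level. Without molecular identifiers, several PCR reads can come from 1 molecule, so all intervals and limits below cover counting error only, and with 1 library per side every p-value compares these libraries, not the genotypes.

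The reporter IG-CGI was less methylated at every CpG in the Zfp57 knockout library than in the wild-type library. The mean level was 49.2% (95% interval 41.9 to 56.5) in the wild-type and 5.22% (3.76 to 6.67) in the knockout, which differed by -44.0 points (-51.4 to -36.6). All 28 CpGs were lower, by Fisher's exact test with a Benjamini-Hochberg adjusted p under 0.05 and a difference of at least 20 points, which makes the share of tested CpGs called lower 100%. The adjusted p-values of this test ran from 7.32e-22 to 2.31e-10. At all 28 CpGs the Wilson interval of the wild-type level lay above that of the knockout level.

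The size of the fall differed along the amplicon on all reads. The largest fall was at CpG 215, where 53 of 85 wild-type calls (62.4%, Wilson interval 51.7 to 71.9) and 2 of 93 knockout calls (2.15%, 0.592 to 7.51) were methylated. The smallest was at CpG 133, with 47 of 136 calls (34.6%) against 9 of 156 (5.77%), a difference of -28.8 points. This order depended on incomplete reads: on reads called at every CpG, CpG 184 fell the most (56.8% to 1.37%) and CpG 43 the least (56.8% to 19.2%). The wild-type level was highest at CpG 205, at 62.8%, and lowest at CpG 115 and CpG 133, both at 34.6%. The knockout level was lowest at CpG 247, with 0 of 82 calls, which allows a level of up to 3.66%. At CpG 259, the CpG with the fewest calls, 26 of 49 wild-type calls (53.1%) and 1 of 80 knockout calls (1.25%) were methylated. Across the 28 CpGs, which lie on the same reads, the levels of the 2 libraries on all reads had a Pearson r of 0.06 and a Spearman rho of -0.07. The wild-type levels in this correlation also depend on where reads end, as described below, so it cannot show whether the residual methylation follows the wild-type profile.

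**Figure D1:**
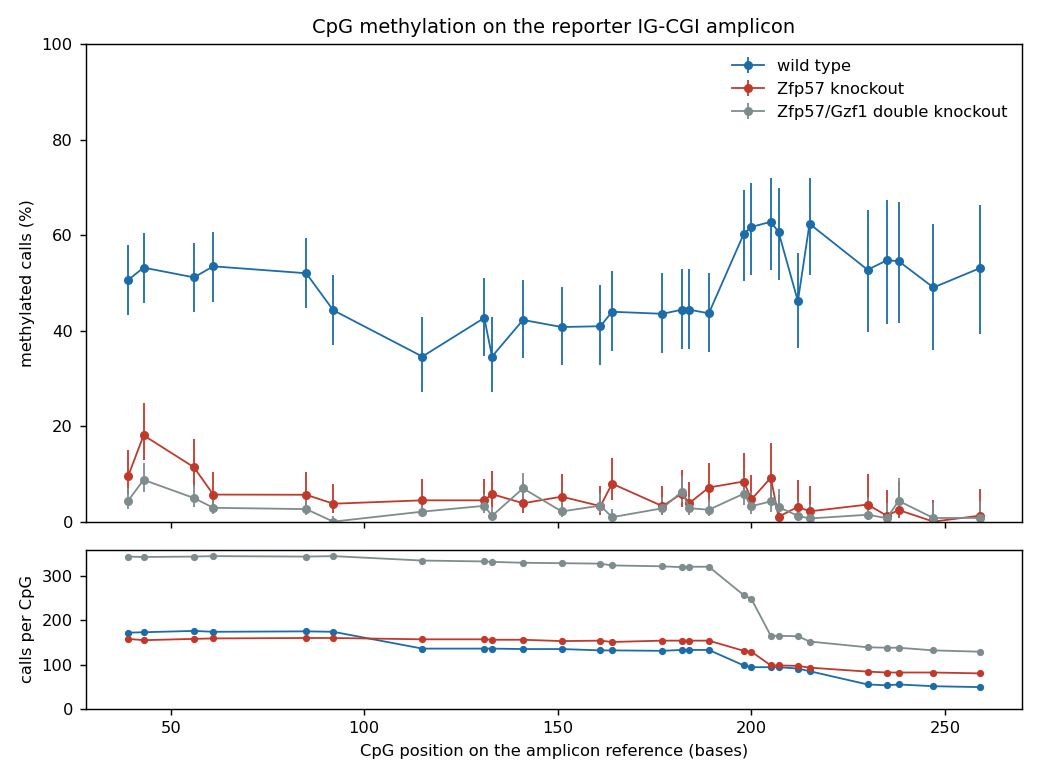
The upper panel plots the methylated share of calls (percent) against CpG position (bases on the amplicon reference) for wild type, Zfp57 knockout and double knockout, with Wilson 95% intervals as bars; the lower panel plots calls per CpG. The wild-type levels lie between 34.6% and 62.8%, and the knockout levels between 0% and 18.1%, highest at CpG 43.

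The methylation that remained without Zfp57 was highest at the first CpGs of the amplicon. CpG 43 had the highest knockout level, with 28 of 155 calls methylated (18.1%, Wilson interval 12.8 to 24.9), and the wild-type level there was 53.2% (92 of 173 calls). CpG 56 followed with 18 of 158 calls (11.4%, 7.33 to 17.3), against 51.1% in wild type. These were the 2 CpGs above 10% in the knockout. Just below was CpG 39, with 15 of 158 calls (9.49%), against 50.6% in wild type. A further 16 of the 28 CpGs were below 5%. Together CpG 39, CpG 43 and CpG 56, set apart after their levels were seen, held 61 of the 209 methylated calls of the knockout library (29.2%).

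Along the amplicon the knockout level was highest in the first and lowest in the last of 4 blocks of 7 CpGs. It was 8.35% (95% interval 5.73 to 10.97) over positions 39 to 115, 4.82% (2.78 to 6.86) over 131 to 177, 5.73% (3.63 to 7.84) over 182 to 207 and 1.96% (0.655 to 3.27) over 212 to 259. The first and the last block had intervals that did not overlap. The wild-type library did not have this order, with 48.5%, 41.2%, 53.9% and 53.2% over the same blocks on all reads. On wild-type reads called at every CpG the blocks were more even, at 53.2%, 51.6%, 53.2% and 52.3%. Over the first 14 CpGs (39 to 177) the knockout mean was 6.58% and over the other 14 (182 to 259) 3.85%, a difference of 2.74 points (0.885 to 4.59). Without CpG 39, CpG 43 and CpG 56 this difference was 0.99 points (-0.681 to 2.67), where the CpGs left out were those with high values on that side. Further along, the level on all reads went from 5.73% in the block ending at CpG 207 to 1.96% in the last, with intervals that also did not overlap. On knockout reads called at every CpG the 4 blocks had 8.02%, 3.72%, 3.72% and 1.96%, so the step to the last block was smaller there. The 3 first CpGs together had a mean of 12.98% in the knockout, which was 7.97 points (4.58 to 11.4) above the 5.01% of the next 3, CpG 61, CpG 85 and CpG 92, that nearly the same reads call. In wild type those 3 and 3 CpGs had 51.6% and 49.9%, a difference of 1.73 points (-1.16 to 4.63).

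The methylated calls at the first CpGs did not come from a few fully methylated ends. Of 155 knockout reads called at CpG 39, CpG 43 and CpG 56, 41 (26.5%, Wilson interval 20.1 to 33.9) had a methylated call among them. On 25 of these reads 1 of the 3 CpGs was methylated, on 12 reads 2 and on 4 reads all 3. In the wild-type library 79 of 171 such reads had all 3 methylated, 75 none and 17 a mixture. Of the 41 knockout reads, 16 had no methylated call further along, and 25 had one or more.

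The reads of the libraries differed in form as well as in level. For this, reads carrying 5 calls or more were sorted into 3 classes: mostly methylated with 70% or more of their calls methylated, mostly unmethylated with 30% or less, and a class between. In the wild-type library 92 of 179 reads were mostly methylated (51.4%, Wilson interval 44.1 to 58.6), 75 mostly unmethylated (41.9%, 34.9 to 49.2) and 12 between (6.70%, 3.88 to 11.4). In the knockout library 0 of 162 were mostly methylated, 155 were mostly unmethylated (95.7%, 91.4 to 97.9) and 7 between (4.32%, 2.11 to 8.65). For the count of 0, a limit of 3 counts allows a share of up to 1.85%, and the Wilson interval 2.32%. The 1 knockout read with fewer than 5 calls, not classed, was called at the first 4 CpGs and methylated at 3 of them (75%). Fisher's exact test on mostly methylated reads gave an adjusted p of 1.66e-32 over 4 tests on reads. The share of reads between these bounds differed by -2.38 points (-7.53 to 2.79), with an adjusted p of 0.357. Mostly methylated reads were thus not detected in the knockout, and no rise of reads between the 30% and 70% bounds was detectable at this depth. Reads with a lower share of methylated calls count as mostly unmethylated here. Among these, 60 of 155 knockout reads (38.7%) and 11 of 75 wild-type reads (14.7%) had a methylated call.

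**Figure D2:**
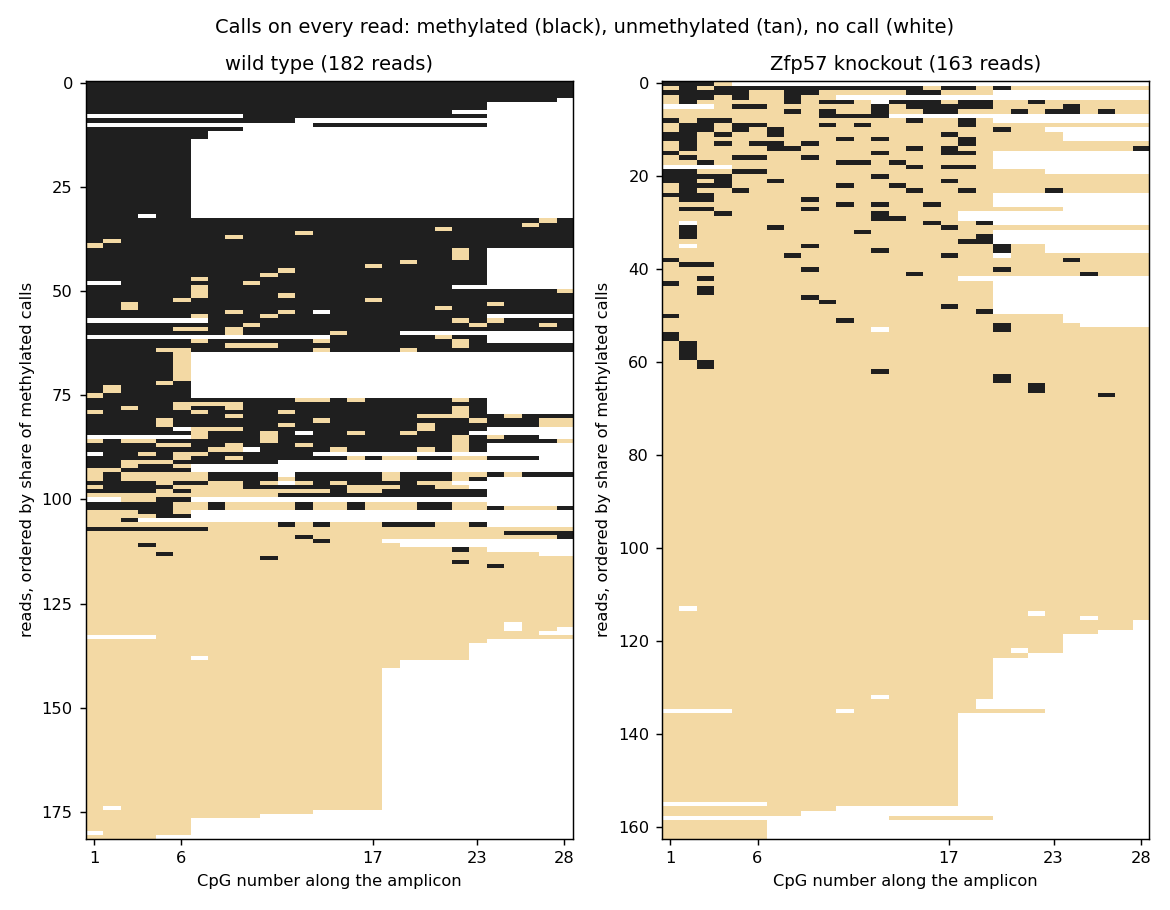
Each row is 1 read and each column 1 of the 28 CpGs in order along the amplicon; black is a methylated, tan an unmethylated and white a missing call, and reads are ordered by their share of methylated calls. The 182 wild-type reads fall into a block of mostly black and a block of mostly tan rows, and the 163 knockout reads are tan with scattered black calls, more of them at the first CpGs.

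The calls of single reads show what these classes contain. In the lines below a capital Z is a methylated call, a small z an unmethylated call and a hyphen a missing call, in the order of the 28 CpGs. They are the most common pattern of wild-type reads called at every CpG and methylated at each (4 reads), the most common knockout pattern (45 reads), the most common knockout pattern with a methylated call (4 reads), and 3 of the 5 knockout reads with 9 or more methylated calls.
Wild type, methylated: ZZZZZZZZZZZZZZZZZZZZZZZZZZZZ
Zfp57 knockout, unmethylated: zzzzzzzzzzzzzzzzzzzzzzzzzzzz
Zfp57 knockout, CpG 43 alone: zZzzzzzzzzzzzzzzzzzzzzzzzzzz
Zfp57 knockout, 16 methylated calls: zZzZZZZZZZZZZZZzZZzZzzzzzzzz
Zfp57 knockout, 10 methylated calls: zZzzzzzZzZZz-ZZZzZZzzZzzzzzz
Zfp57 knockout, 9 methylated calls: ZZZZZzzZZzzzzzZZzzz---------
The read with 16 methylated calls came closest to the wild-type methylated reads, with 12 methylated CpGs in a row and 57.1% of its 28 calls methylated.

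Methylated calls in the knockout were spread over many reads, few on each. Of 162 reads, 95 had none, 26 had 1, 19 had 2 or 3 and 22 had 4 or more. Reads with at least 1 made up 41.4% (Wilson interval 34.1 to 49.1), against 115 of 179 (64.2%, 57.0 to 70.9) in wild type (Fisher's exact test, adjusted p = 4.49e-05, difference -22.9 points). The numbers per read were far apart: in wild type 105 of the 115 reads with a methylated call had 4 or more, and 64 had 10 or more, against 2 knockout reads with 10 or more. The spread in the knockout was uneven all the same. The 22 reads with 4 or more methylated calls held 136 of 206 such calls (66.0%), and the 17 reads with the most held 56.3%.

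**Figure D3:**
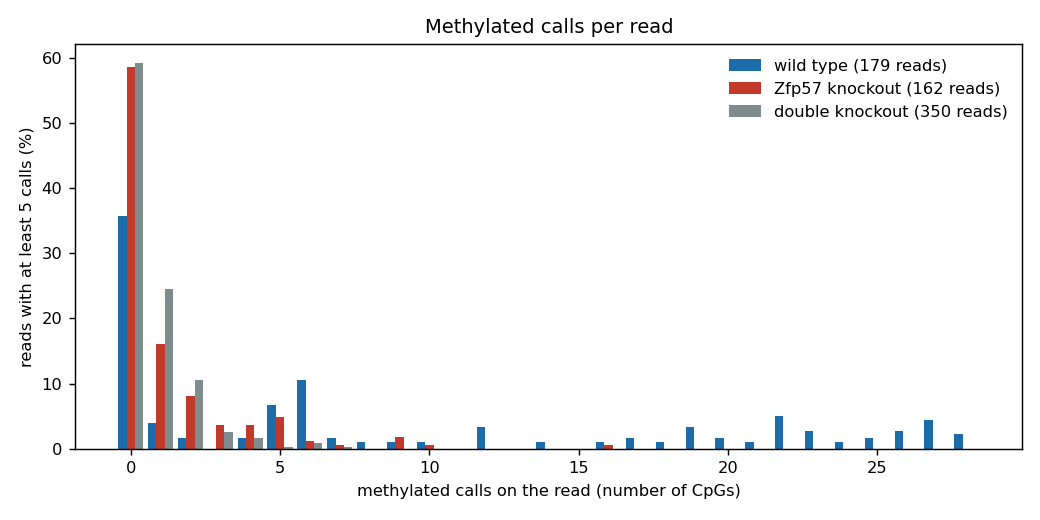
Bars give the percent of reads with at least 5 calls (y axis) that hold a given number of methylated calls (x axis) in the wild-type, Zfp57 knockout and double knockout libraries. The knockout libraries end at 16 and 7 methylated calls per read, while the wild-type library reaches 28.

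Neighbouring calls also differed. In wild type, 1355 of 1508 methylated calls with a call at the next CpG were followed by a methylated call (89.9%), and 9.36% of unmethylated ones were. In the knockout 62 of 203 methylated calls (30.5%) and 3.94% of unmethylated calls were followed by a methylated call. Of the 209 methylated calls of the knockout library, 109 (52.2%) stood alone, without a methylated call at either side, and 42 (20.1%) were in runs of 3 or more. In wild type 3.36% stood alone and 93.3% were in such runs. In the knockout, too, the share after a methylated call was above that after an unmethylated call. These shares are descriptions, since calls of 1 read are not independent.

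Mostly unmethylated reads were not alike in the 2 libraries. In wild type 11 of 75 such reads (14.7%, Wilson interval 8.39 to 24.4) had a methylated call, and their mean level was 2.35% (95% interval 0.569 to 4.14). In the knockout 60 of 155 such reads did (38.7%, 31.4 to 46.6), with a mean level of 3.77% (2.80 to 4.73). The first 3 CpGs stood at 1.36% on these wild-type reads and at 11.4% on these knockout reads, and the other 25 at 2.47% and 2.85%. The classes were made from the calls themselves, so these values are given without a test. Of the 75 wild-type reads, 33 shared 1 pattern, unmethylated at the first 17 CpGs and without calls after them.

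Reads differed in how many CpGs they call. Calls began at CpG 39 on 172 wild-type reads (94.5%) and 158 knockout reads (96.9%), and ended at a few places. In wild type 39 reads ended at CpG 92, 35 at CpG 189, 30 at CpG 215 and 49 at CpG 259, the last CpG. In the knockout these numbers were 4, 23, 9 and 80, and another 30 reads ended at CpG 200, where 0 wild-type reads did. A call at all 28 CpGs was present on 44 wild-type reads (24.2%) and 73 knockout reads (44.8%). The sources used here give no aligner settings, and what ends the calls was not tested.

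Where a wild-type read ended went with its methylation. Of the 38 classed reads ending at CpG 92, 30 were mostly methylated (78.9%, Wilson interval 63.7 to 88.9). Of the 35 ending at CpG 189, 0 were, and 34 of these had no methylated call. Of the 30 ending at CpG 215, 23 were mostly methylated (76.7%, 59.1 to 88.2), and of the 49 reaching CpG 259, 26 were (53.1%, 39.4 to 66.3). The same order held at the first 6 CpGs, 39 to 92, which nearly all reads cover: 79.1% of calls there were methylated on reads ending at CpG 92, 0 of 209 on reads ending at CpG 189, 76.7% on reads ending at CpG 215 and 52.5% on reads reaching CpG 259. Of 48 reads called at fewer than 14 of the CpGs, 38 were mostly methylated (79.2%), against 54 of 131 reads called at 14 or more (41.2%), a difference of 37.9 points (22.02 to 50.1; Fisher's exact test, adjusted p = 1.55e-05). With reads of identical pattern counted once, the difference was 0.37 points (-22.9 to 21.0, unadjusted p = 1 by Fisher's exact test). The mostly methylated reads were then 13 of 21 short reads (61.9%) and 48 of 78 longer ones (61.5%). Among the longer reads 33 shared the pattern with the first 17 CpGs unmethylated, and among the short ones 18 that with the first 6 methylated, and each set then counts as 1.

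**Figure D4:**
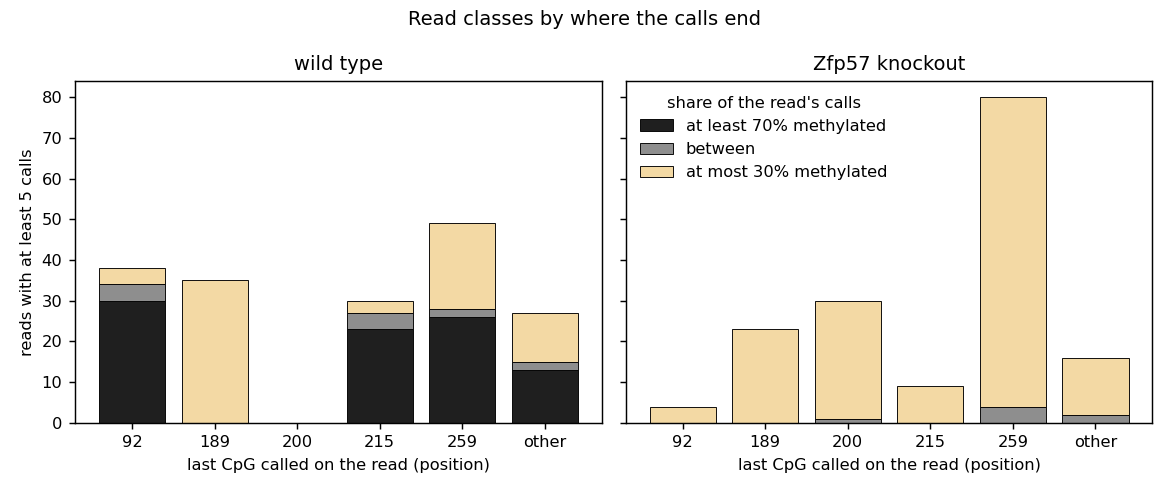
Bars count reads with at least 5 calls (y axis) by the last CpG called (x axis, position on the amplicon reference; other pools all remaining ends) in wild type and Zfp57 knockout, split by the share of the read's calls that is methylated. In wild type the reads ending at CpG 92 and CpG 215 are mostly methylated and those ending at CpG 189 are all mostly unmethylated, while no knockout bar has a mostly methylated part.

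The steps of the wild-type profile followed these ends. From CpG 189 to CpG 198 the wild-type level went from 43.6% to 60.2%. On the 98 reads called at both it was 59.2% and 60.2%, and the 35 reads without a call at CpG 198 had 0 methylated calls at CpG 189. From CpG 92 to CpG 115 the level went from 44.3% to 34.6%, and on the 134 reads called at both from 38.1% to 35.1%. From CpG 215 to CpG 230 it went from 62.4% to 52.7%, and on the 55 reads called at both from 47.3% to 52.7%. On the 44 reads called at every CpG, the wild-type levels ran from 45.5% at CpG 133 to 56.8% at CpG 43 and had a mean of 52.6%. The first 14 and the other 14 CpGs then stood at 52.4% and 52.8%, a difference of -0.32 points (-3.79 to 3.14), whereas on all reads it was -8.75 points (-14.5 to -2.98). The difference at CpG 215, the largest on all reads at -60.2 points (-69.9 to -48.3), was -47.3 points (-61.6 to -31.6) on reads called at every CpG, with 16 CpGs ahead of it.

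The knockout profile kept its highest CpG on complete reads. On the 73 knockout reads called at every CpG the mean was 4.35% (95% interval 2.22 to 6.49), and this was CpG 43, at 19.2% (14 of 73 calls, Wilson interval 11.8 to 29.7). CpG 39, CpG 43 and CpG 56 stood at 11.4% on these reads and the other 25 CpGs at 3.51%, a difference of 7.91 points (3.24 to 12.6). The first 14 CpGs held 60 and the other 14 held 29 of the 89 methylated calls of these reads, a difference in level of 3.03 points (0.415 to 5.65). A methylated call was present in the first 14 alone on 12 reads, in the other 14 alone on 6, in both on 10 and in neither on 45. Of the 25 methylated calls at CpG 39, CpG 43 and CpG 56 on these reads, CpG 43 held 14. CpG 56 stood at 8.22% and CpG 39 at 6.85%, the same level as CpG 61, CpG 115 and CpG 189. The higher mean of the first 3 CpGs was thus also present on reads with the same number of calls at either end, but rested largely on CpG 43.

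**Figure D5:**
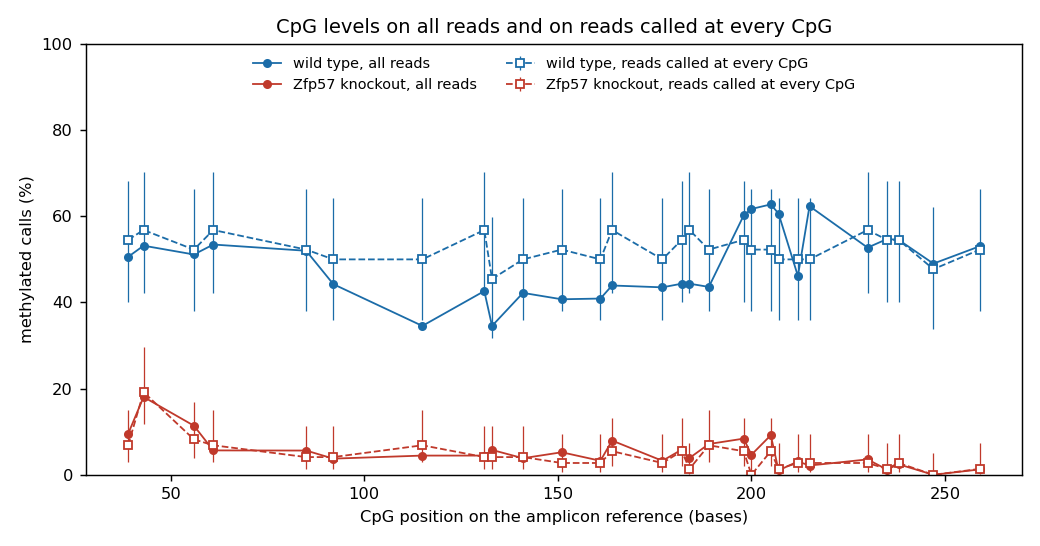
Methylated share of calls (percent) by CpG position (bases on the amplicon reference) on all reads (filled circles) and on reads called at every CpG (open squares, with Wilson 95% intervals), 44 in wild type and 73 in the Zfp57 knockout. The wild-type line is flatter on complete reads, and the knockout line keeps its highest point at CpG 43.

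Knockout reads also differed by where they ended, on a smaller scale. Of the 30 ending at CpG 200, 10 had no methylated call, and their pooled level was 9.62%. Of the 23 ending at CpG 189, 20 had none, with a pooled level of 1.30%, and of the 80 reaching CpG 259, 48 had none, with 4.98%. Reads with a methylated call made up 42.8% of reads called at 14 or more CpGs and 38.4% of reads called at every CpG, both within the interval of the share on all reads. The 10 knockout reads with at least 5 but fewer than 14 calls held 8 methylated calls, on 2 reads.

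The difference between the libraries was also present on the more complete reads. It was -41.7 points (-49.5 to -33.8) on reads called at 14 or more CpGs, 131 in wild type and 152 in the knockout, and -48.2 points (-61.7 to -34.8) on reads called at every CpG. At the first 6 CpGs, chosen after the ends of the reads were seen because nearly all reads call them, it was -41.8 points (-49.1 to -34.4), from 50.8% to 8.998%. The share of mostly methylated wild-type reads was 41.2% on reads called at 14 or more CpGs and 54.5% (24 of 44) on reads called at every CpG, and it was 0 in the knockout in both cases.

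In the library without Zfp57 and Gzf1, which carries the same read-name tag as the Zfp57 knockout, CpG 43 was again the CpG with the highest level. Its 351 reads had a mean of 3.00%, a difference of -2.21 points from the Zfp57 knockout (95% interval -3.75 to -0.675), or -2.04 points (-4.28 to 0.194) on reads called at every CpG. By Fisher's exact test with adjustment and no minimum difference, 4 of the 28 CpGs (14.3%) were lower than in the Zfp57 knockout and 0 higher. They were CpG 43, CpG 92, CpG 133 and CpG 164, and the smallest adjusted p was 0.00377, at CpG 164 (0.926% against 7.95%). CpG 43 stood at 8.75% (30 of 343 calls), followed by CpG 141 at 6.97% and CpG 182 at 6.25%, both above CpG 56 at 4.94% and CpG 39 at 4.36%. The first 3 CpGs had a mean of 6.02% against 2.64% for the rest, a difference of 3.37 points (1.71 to 5.04). On reads called at every CpG this was 2.31 points (-0.0717 to 4.68), and CpG 43 and CpG 182 then had the same level, 7.38%. Across the 28 CpGs the levels of both knockout libraries had a Pearson r of 0.65 and a Spearman rho of 0.53. Reads with a methylated call were 40.9% (Wilson interval 35.8 to 46.1), close to the 41.4% of the Zfp57 knockout, but 11 of 350 reads (3.14%) had 4 or more such calls, against 22 of 162 (13.6%). Of its 242 methylated calls 77.7% stood alone and the longest run was 3.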

How the data were processed

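Each deposited file holds 1 library with 1 call per read and CpG of the original top strand, methylated or unmethylated, written by the authors with the Bismark methylation extractor 0.22.3, per the file headers. Bismark 0.24.2 and the mm10 build stand in the submitters' processing notes, but the reads lie on an amplicon reference without genome coordinates, whose sequence was not used here. An amplicon CpG is a position called on at least 10% of the reads of any reporter library; 1 call per library lay elsewhere. Means use CpGs with at least 10 calls, and their 95% intervals come from a linearised variance with the read as the unit. Wilson intervals were used for shares, Newcombe intervals for differences of shares, and 3 counts as the limit for a count of 0. Fisher's exact test, two-sided, was applied to CpGs and to read classes, and p-values were adjusted after Benjamini and Hochberg over 28 CpGs or 4 tests on reads. In 50 simulated pairs with the call positions of these reads, 95.6% of CpGs lowered by 30 points were called, 0.286% of the others, and 94% of intervals held the true difference. PCR copies were not simulated. Simulated reads were methylated irrespective of where their calls end, unlike the wild-type reads, so these shares do not cover that link. Both simulated libraries of a pair mixed methylated and unmethylated copies equally, and only every other CpG was lowered. The real knockout library was lower at every CpG and had no mostly methylated reads, so the simulation does not cover a level as low as its own. CpGs named are those with the highest and lowest level and the fewest calls in each library, the largest and smallest fall, and those above 10% in the knockout. CpG 39, CpG 61, CpG 85, CpG 141, CpG 164, CpG 182, CpG 184 and the CpGs at which reads end were named after their values were seen. The comparison, its members and the named positions were chosen with earlier results of these data known. Software was Python 3.11.15, numpy 2.4.6, pandas 2.3.3, scipy 1.17.1 and matplotlib 3.10.9.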

Additional observations from a re-analysis of the deposited data

How the results depend on the processing

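No paired analysis was possible because each genotype has 1 reporter library. The mean difference stayed within its interval under every alternative run except with identical read patterns counted once, where it was -52.8 points. All 28 CpGs were called under each alternative except a minimum difference of 30 points, which left out CpG 133 and gave 27. The share of mostly methylated wild-type reads was 41.2% on reads called at 14 or more CpGs and 61.6% with identical patterns counted once. In the knockout this share was 0 under every alternative run. The knockout difference between the first and the other 14 CpGs was 4.97 points between the outer 9 CpGs at either end and 5.29 points with identical patterns counted once. The dependence of the wild-type read class on completeness was 0.37 points with identical patterns counted once. Counting patterns once keeps 102 wild-type and 79 knockout patterns and drops most fully unmethylated knockout reads by construction. It put the knockout level of CpG 43 at 35.2% and of CpG 56 at 21.6%. Reads with the same calls that end at different CpGs stay separate in this count, so it need not remove all PCR copies. For example, a mixed wild-type read ending at CpG 215 has the same calls as another that reaches CpG 259. Counting patterns once for the read classes, the first 6 CpGs alone, the reads called at CpG 259, the omission of the first 3 CpGs and the alternatives for read completeness were added after seeing the data. Depth limits single CpGs most beyond CpG 215, where wild type had 49 to 55 calls. With 1 library per side, spread between cultures is not known.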

Other observations

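The IG-CGI reference used for the V6.5 line, mESC labelled without a reporter, has CpGs at the spacing of 26 of the 28 reporter CpGs when shifted by 16 bases. At these 26 CpGs the wild-type reporter library stood at 49.1% (95% interval 41.9 to 56.2) and the V6.5 wild-type library at 36.5% (34.0 to 39.0). On reads called at every CpG the values were 52.8% (39.4 to 66.2) and 36.6% (33.6 to 39.7). The Zfp57 knockout reporter library had 5.57% (4.02 to 7.12) there and the V6.5 library without Dnmt1, the maintenance methyltransferase, 1.12% (0.756 to 1.48). At the CpGs equal in spacing to CpG 39, CpG 43 and CpG 56, the Dnmt1 knockout had 1.46%, 1.06% and 0.266%, against 9.49%, 18.1% and 11.4% in the Zfp57 knockout. Across the 26 CpGs the Zfp57 and the Dnmt1 knockout levels had a Pearson r of -0.10. With a Dnmt1 knockout mean of 1.12%, this r cannot show whether the patterns along the amplicon differ. Line, reference, read-name tag and genotype differ together here, so these values stand side by side without a test.

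On the mostly methylated wild-type reporter reads, which were chosen by their methylation, some CpGs were less often methylated than the rest. CpG 212 had 38 of 53 calls methylated (71.7%), CpG 115 had 45 of 58 and CpG 133 had 45 of 57, while the mean over the CpGs was 91.2% and the highest, at CpG 198, 98.2%. They were picked after their values had been seen.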
